A study of Mus musculus with 24 samples.

Results

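The proteasome genes on the array were taken as all probe sets whose annotated symbol begins with Psma, Psmb, Psmc, Psmd or Psme, which gave 53 probe sets for 42 genes among 12422 probe sets and 8251 named genes. Of the 42 genes, 40 encode subunits, activators or assembly chaperones of the proteasome. The other 2, Psmc3ip and Psme3ip1, are named for partners of such a subunit and are no part of the particle. The 40 genes fell into 8 classes by role: the alpha ring with 7 genes on 7 probe sets, the constitutive beta ring with 7 on 12, the immunoproteasome beta subunits with 3 on 3, the ATPase ring with 6 on 9, the non-ATPase base with 3 on 3, the lid with 8 on 10, the assembly chaperones with 3 on 3 and the activators with 3 on 4. A further 2 probe sets match Psme2 and Psme2b alike and were kept apart from all counts.

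RNA came from the whole liver of 24 male mice, 9 to 12 weeks old, on a mixed SV129 and C57BL/6 background, with 1 mouse per Affymetrix Murine Genome U74Av2 array. Wild-type mice and PPARα-null mice, which lack that nuclear receptor, each made up 4 groups of 3. The groups were control, heat shock (HS, 40 min of heat stress at 42 °C), WY-14,643 in the diet at 500 ppm for 1 week (WY, a synthetic agonist of PPARα), and the same diet followed by heat shock (WY+HS). The study's methods list several times of sacrifice after HS, and its results give 4 h for the arrays. The design asks which responses to HS and to WY depend on PPARα, and the 24 arrays sample 1 time point of each.

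The proteasome degrades proteins that carry ubiquitin chains. Its core is a stack of 4 rings, in which the alpha rings form the gate and the beta rings hold the cutting sites, of which Psmb5, Psmb6 and Psmb7 carry the active residues. The regulatory cap has a base, where the ATPases encoded by the Psmc genes unfold the substrate and pull it in, and a lid, whose member Psmd14 removes the ubiquitin. In cells that present antigens or have met interferon gamma, Psmb8, Psmb9 and Psmb10 take the places of Psmb5, Psmb6 and Psmb7 and make an immunoproteasome, whose peptides suit MHC class I, and the ring-shaped activators Psme1 and Psme2 open the core without ubiquitin. The transcription factor Nfe2l1 (NRF1) drives the constitutive genes together when proteasome activity is short. PPARα is best known for its control of fatty acid oxidation in liver.

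The promoters of the exchangeable catalytic subunits and of Psmd4, the ubiquitin receptor of the base, are shown because these genes carry the opposite movements described below for WY. Psmb7 had no entry in the promoter table. Each runs 5′ to 3′ on the gene's own strand from 250 bases before to 50 bases after the RefSeq start in GRCm38.p6. Capitals mark every match on either strand to 1 of 5 short motifs: the antioxidant response element (TGACNNNGC), the CCAAT box (CCAAT), the inverted heat shock element unit (GAANNTTC), the nuclear receptor core site (AGGTCA) and the interferon gamma activated site (TTCNNNGAA).
Psmd4, chr3:95042565-95042864, minus strand: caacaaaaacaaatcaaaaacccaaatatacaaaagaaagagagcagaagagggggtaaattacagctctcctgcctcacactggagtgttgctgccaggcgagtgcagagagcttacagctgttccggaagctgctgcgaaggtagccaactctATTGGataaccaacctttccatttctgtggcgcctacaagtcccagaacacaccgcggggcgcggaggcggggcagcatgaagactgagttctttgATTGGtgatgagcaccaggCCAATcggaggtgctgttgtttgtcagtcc
Psmb5, chr14:54617946-54618245, minus strand: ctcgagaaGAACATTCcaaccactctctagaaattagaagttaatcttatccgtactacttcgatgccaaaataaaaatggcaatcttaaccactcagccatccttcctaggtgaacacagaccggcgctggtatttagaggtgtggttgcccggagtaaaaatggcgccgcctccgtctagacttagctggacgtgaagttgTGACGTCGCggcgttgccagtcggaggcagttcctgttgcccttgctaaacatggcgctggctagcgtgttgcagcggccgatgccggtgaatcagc
Psmb6, chr11:70525107-70525406, plus strand: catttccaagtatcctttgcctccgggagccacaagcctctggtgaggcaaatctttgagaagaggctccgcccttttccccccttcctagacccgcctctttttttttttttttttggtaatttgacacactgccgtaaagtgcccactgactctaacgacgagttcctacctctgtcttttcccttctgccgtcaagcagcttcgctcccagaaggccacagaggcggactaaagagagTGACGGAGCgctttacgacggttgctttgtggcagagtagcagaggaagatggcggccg
Psmb8, chr17:34197945-34198244, plus strand: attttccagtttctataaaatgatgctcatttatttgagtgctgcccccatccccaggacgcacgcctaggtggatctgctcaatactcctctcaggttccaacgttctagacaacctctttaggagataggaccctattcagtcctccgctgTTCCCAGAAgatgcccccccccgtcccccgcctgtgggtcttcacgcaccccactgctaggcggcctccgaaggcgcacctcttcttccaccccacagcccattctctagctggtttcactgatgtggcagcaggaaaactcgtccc
Psmb9, chr17:34187281-34187580, minus strand: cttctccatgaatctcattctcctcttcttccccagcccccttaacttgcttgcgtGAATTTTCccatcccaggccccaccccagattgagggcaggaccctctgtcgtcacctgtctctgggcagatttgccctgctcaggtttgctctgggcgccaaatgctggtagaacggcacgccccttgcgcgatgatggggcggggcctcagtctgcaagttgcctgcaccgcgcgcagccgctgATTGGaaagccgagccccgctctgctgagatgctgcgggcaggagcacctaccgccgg
Psmb10, chr8:105938343-105938642, minus strand: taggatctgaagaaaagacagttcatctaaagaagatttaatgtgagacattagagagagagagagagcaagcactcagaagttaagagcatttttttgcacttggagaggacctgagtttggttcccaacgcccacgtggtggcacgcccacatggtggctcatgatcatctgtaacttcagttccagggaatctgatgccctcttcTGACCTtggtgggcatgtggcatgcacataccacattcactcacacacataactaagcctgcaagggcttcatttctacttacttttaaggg

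In these windows the constitutive Psmb5 and Psmb6 each held 1 antioxidant response element, 47 and 9 bases before the start. The Psmb5 window also held the heat shock unit 242 bases before its start. Psmb8 held an interferon gamma activated site 97 bases before the start, Psmb9 a heat shock unit at 194 and a CCAAT box at 8, and Psmb10 the core site in its reverse form at 42. Psmd4 held a CCAAT box 95 bases before its start and 2 more at or after it. Over the 36 promoters found for 34 of the subunit, chaperone and activator genes, 6 (16.7%) held the antioxidant response element against 12.4% of all 32851 mouse promoters in the table, and 13 (36.1%) held CCAAT against 37.4%. The nuclear receptor core site was in 10 (27.8%) against 16.3% of all promoters, the heat shock unit in 2 (5.56%) against 7.86%, and the interferon gamma activated site in 2 (5.56%) against 8.3%. In the 6 windows no match overlapped another, and a match is a description of letters and not a binding site. Psmb9 and Psmb8 lie in the class II region of chromosome 17 in the order Psmb9, Tap1, Psmb8, Tap2, and Psme1 and Psme2 are separated by Emc9 alone in the same RefSeq annotation.

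Array medians of the deposited intensities ran from 15.2 to 40.5 before scaling, so the arrays were set to a common distribution. The 10th percentile of all scaled values lay below 0. Its size without the sign, 15.7, was used as a floor, and values under it, 42.9% of all, were set to it. Of all 12422 probe sets, 2996 lay at the floor on all 24 arrays. They could not be called, and they are counted in every share over all probe sets below. The scaling and the floor hold the median over all probe sets near 0, so that median is not a result. Of the 53 probe sets, 41 lay above the floor on all 24 arrays, 8 on some, and 4 on none: 1 of 2 for Psmc5, 1 of 3 for Psmb4, 1 of 2 for Psme1, and the one for Psmc3ip, which serves meiotic recombination. The 41 probe sets had a median residual SD of 0.156 on the log2 scale between mice of a group, against 0.249 over all 4821 probe sets never at the floor. The hepatocyte markers were high in every group, with summed intensities of 45534 to 53449 over 11 genes, and of 19 immune cell markers 5 to 7 lay at the floor in all 3 mice of each group. Ppara itself read 315, 298 and 357 in wild-type control livers and 185, 174 and 152 in PPARα-null ones (log2 -0.92, adjusted p = 0.0594), and the place of its probes relative to the disrupted part of the gene was not known. Ppara was called lower in PPARα-null mice after HS (log2 -0.73), after WY (log2 -1.10) and after WY+HS (log2 -0.75). All changes below are log2 differences of normalised intensity, tested with limma over the 8 groups with Benjamini-Hochberg adjustment across 12422 probe sets at 0.05. Intensities belong to 1 probe set each and are not compared between genes. Counts of signs, counts at an unadjusted p and statements on overlap between mice describe the members or named genes alone. No share over all probe sets stands beside them, so they are not read as a trend of the members.

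**Figure D1:**
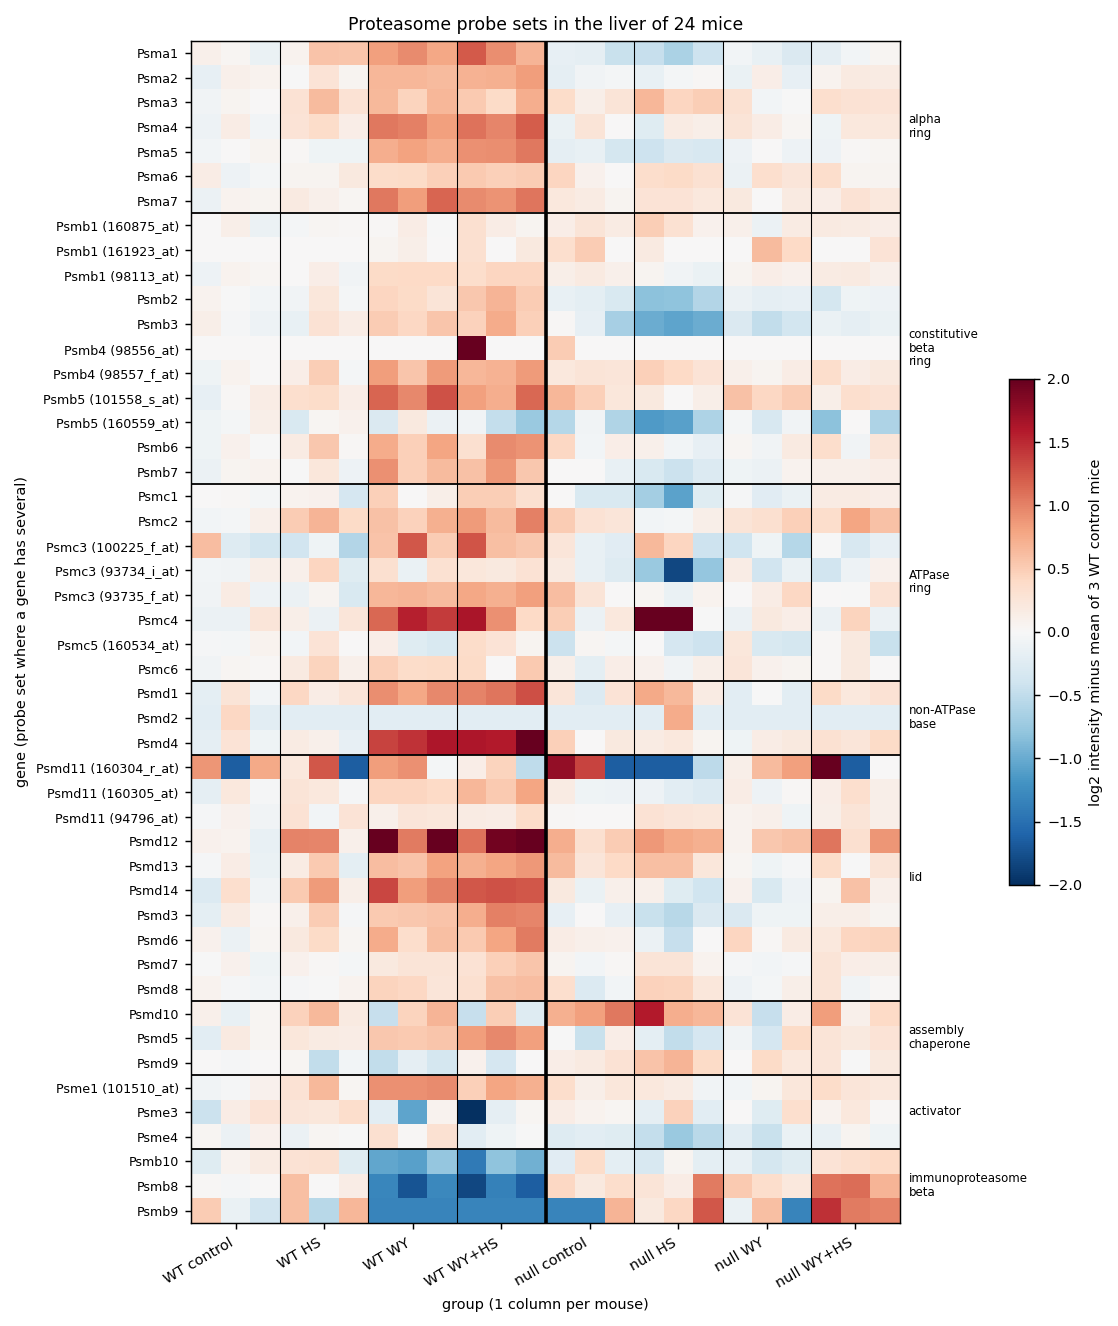
Log2 intensity of each proteasome probe set above the floor, as the difference from the mean of the 3 wild-type control mice, with 1 column per mouse and rows ordered by class; the colour scale stops at -2 and 2. Most rows of the alpha ring, beta ring and lid are raised in the 6 wild-type mice given WY, where the rows of Psmb8, Psmb9 and Psmb10 are lowered.

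WY raised the constitutive proteasome in wild-type liver and lowered the immunoproteasome subunits Psmb8 and Psmb10. Of the 53 probe sets, 28 rose and 2 fell, with a median log2 change of 0.41 against 0 over all probe sets, where 5.59% rose and 5.19% fell. By gene, taking the brightest probe set, 27 of 40 rose, 2 fell and 11 did not pass. All 28 rises were of constitutive subunits, chaperones or activators, and both falls were of immunoproteasome subunits. In bulk RNA, fewer cells of a type and less RNA per cell cannot be told apart. The count of rises depended on the scaling and the test: 16 probe sets rose when each array was set to a common median instead, 18 by the methods' test (a test across the 8 groups followed by Scheffe's test between pairs), and 20 to 24 when any 1 mouse of these groups was left out. Over all probe sets the rises were 694 as reported, 504 with a common median and 379 by the methods' test. The fall in the summed hepatocyte markers, from 52244 to 52498 in wild-type control mice to 45534 to 47406 on WY, stands beside these counts, and its part in them was not tested.

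The alpha ring moved as a whole, with 7 of 7 probe sets up and a median log2 change of 0.75. Psma7, with the smallest adjusted p of the ring, read 239, 270.2 and 267 in wild-type controls and 534, 462 and 581 after WY (log2 1.02, SE 0.08, adjusted p = 1.34e-07). All 3 treated mice lay above all 3 controls. Psma5 went from 295, 308 and 320.1 to 508, 537 and 508 (log2 0.75, SE 0.06, adjusted p = 1.59e-07), and Psma4 from 352, 422 and 366 to 785, 760.2 and 672 (log2 0.96, adjusted p = 4.65e-05). The smallest rise of the ring was that of Psma6, from 608, 516 and 534 to 709, 717 and 765 (log2 0.40, adjusted p = 0.0319). Psma1, Psma2 and Psma3 lay between, at log2 0.85, 0.65 and 0.59.

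The constitutive beta ring had 7 of 12 probe sets up and none down, at least 1 for each of its 7 genes. Psmb5, whose active site cuts after hydrophobic residues, read 209.6, 239 and 261 in controls on 101558_s_at and 528, 456 and 572 after WY, a 2.19-fold rise (log2 1.13, SE 0.13, adjusted p = 8.99e-06). Psmb7, which carries the trypsin-like activity, went from 439.9, 491 and 497 to 897, 662 and 739.8 (log2 0.68, SE 0.11, adjusted p = 0.000426) on its only probe set, 94263_f_at. Psmb6, which carries the caspase-like activity, went from 289.8, 328 and 308 to 514, 430.0 and 534 (log2 0.67, SE 0.17, adjusted p = 0.0168). For Psmb6, Psmb7 and Psmb5 on 101558_s_at the treated mice lay above every control mouse. Of the subunits without an active site, Psmb4 rose by 0.75, Psmb3 by 0.50, Psmb1 by 0.39 and Psmb2 by 0.36 on the log2 scale.

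Several of these genes have a second probe set that did not pass. For Psmb5 the other probe set (160559_at) had a log2 change of -0.07 (adjusted p = 1) beside 1.13 for 101558_s_at, and read 207, 215 and 240.3 in controls and 181, 253 and 203 after WY, so the rise of Psmb5 rests on 1 of its 2 probe sets. For Psmb1, 160875_at gave 0.05 and the mostly floored 161923_at 0.06, against 0.39 for 98113_at. For Psmb4, 98556_at and 98558_r_at lay at the floor in both groups, so only 98557_f_at could move. An ending of f or s marks a probe set that the designer found to match several sequences or transcripts, an ending of r one that relaxed the probe rules, and an ending of i one with an incomplete set of probes.

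The base and the lid held the largest rises. Psmd4, which binds ubiquitin chains, read 299, 412 and 319.8 in wild-type control mice and 869.5, 923 and 1044 after WY, a 2.77-fold rise (log2 1.47, SE 0.16, adjusted p = 8.18e-06). All 3 treated mice lay above the highest control. Psmd1, a scaffold of the base, went from 191, 259.8 and 210.0 to 416, 374 and 427 (log2 0.89, adjusted p = 0.00118), and Psmd2 lay at the floor in most mice. In the lid, 7 of 10 probe sets rose at a median of 0.55. Psmd12 went from 26.6, 26.3 and 22.7 to 99.9, 51.7 and 112 (log2 1.73, SE 0.34, adjusted p = 0.00225) on a probe set with an f ending. Psmd14, the deubiquitinase, went from 122, 186 and 141 to 372, 264 and 295 (log2 1.06, SE 0.21, adjusted p = 0.00217). The lid members Psmd13, Psmd6, Psmd3 and Psmd7 rose by 0.66, 0.56, 0.55 and 0.23, and Psmd8 had a change of 0.37 that did not pass (adjusted p = 0.077). For Psmd11, 160305_at rose by 0.41 (adjusted p = 0.0169), while 94796_at gave 0.19 (adjusted p = 0.175) and 160304_r_at 0.57 (adjusted p = 1).

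In the ATPase ring 3 of 9 probe sets rose and none fell, at a median of 0.41. Psmc2 went from 218, 222 and 244 to 342, 313 and 375 (log2 0.59, SE 0.12, adjusted p = 0.00325), and Psmc6 rose by 0.41 (adjusted p = 0.0347). Psmc3 rose by 0.66 on 93735_f_at (adjusted p = 0.00388), with 0.78 on 100225_f_at (adjusted p = 0.139) and 0.16 on 93734_i_at (adjusted p = 1). Psmc4 had the largest change of the ring, from the floor, the floor and 20.3 to 37.9, 50.1 and 45.3, without passing (log2 1.36, SE 0.43, adjusted p = 0.0546), and the floor bounds it on the control side. Psmc1 had a change of 0.20 and Psmc5 of -0.14, and neither passed. Of the assembly chaperones, Psmd5 rose by 0.54 (adjusted p = 0.0345), with 0.22 for Psmd10 and -0.34 for Psmd9.

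**Figure D2:**
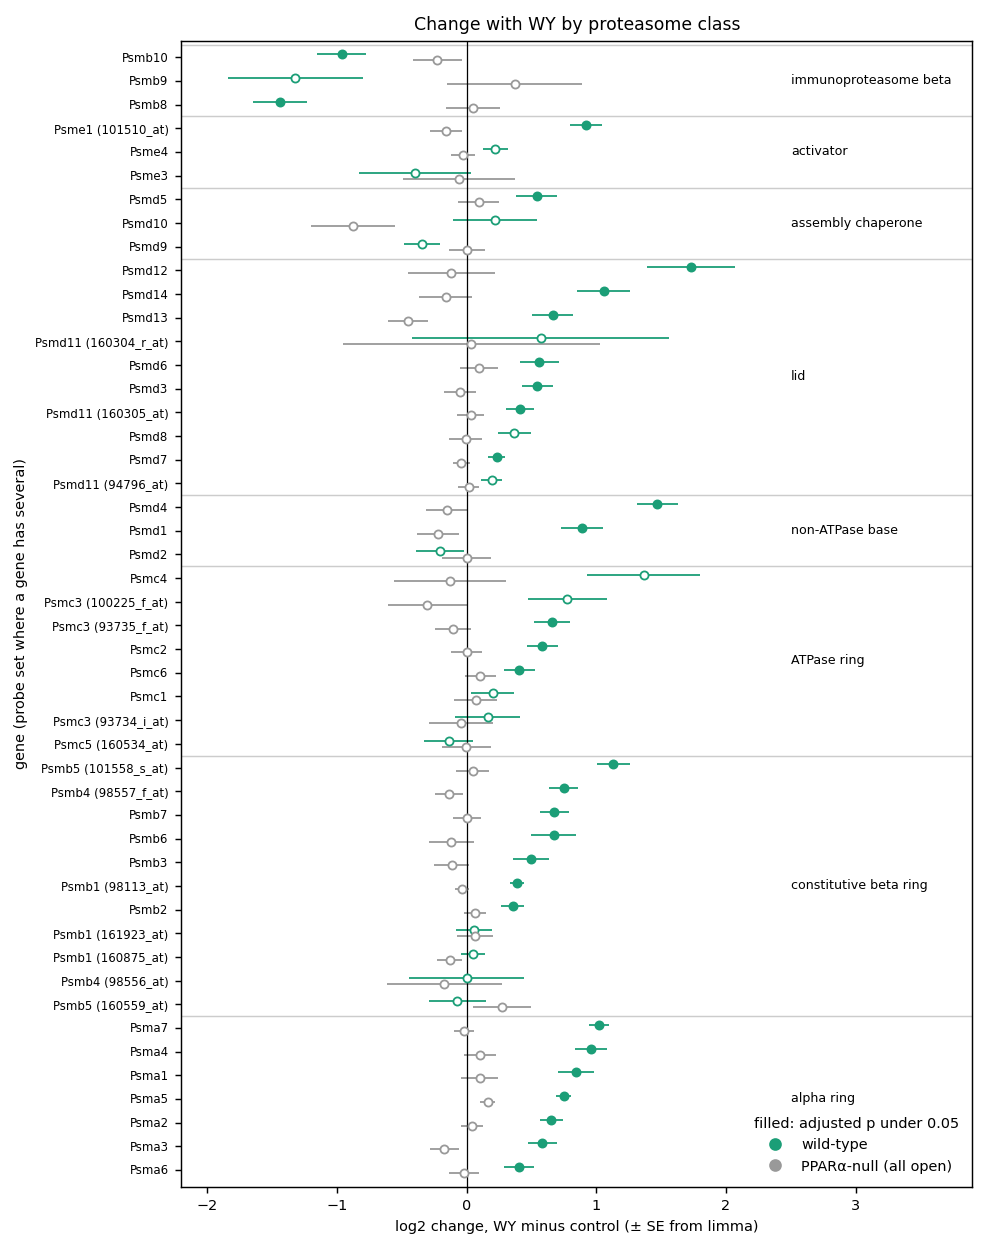
Log2 change after WY against control for each probe set, in wild-type and PPARα-null mice, by class; bars are the standard error of the limma fit, and filled points have an adjusted p under 0.05. In wild-type mice the 7 alpha ring points are all filled and lie between 0.40 and 1.02, Psmb8 and Psmb10 are filled below 0, and no point is filled in PPARα-null mice.

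The immunoproteasome subunits went the other way. Psmb8, which replaces Psmb5, read 113, 109 and 112 in wild-type control mice and 44.9, 33.6 and 45.5 after WY, a 2.71-fold fall (log2 -1.44, SE 0.21, adjusted p = 0.000158). Psmb10, which replaces Psmb7, read 146, 183 and 195 and then 84.3, 82.2 and 102 (log2 -0.96, SE 0.19, adjusted p = 0.00222). In both, every treated mouse lay below every control mouse. Psmb9, which replaces Psmb6, read 56.1, 35.8 and 30.2 in controls and lay at the floor in all 3 mice after WY, so its log2 difference of -1.32 is bounded by the floor and did not pass (adjusted p = 0.141). No fall of any immunoproteasome subunit passed without scaling of the arrays, where the falls over all probe sets went from 645 to 121. The immune cell markers summed to 1367 to 1649 over 19 genes in wild-type control mice and 1037 to 1184 after WY. The defining markers Ptprc, Itgam, Adgre1 and Cd3e lay at the floor in both groups, 1 of the 14 markers above it in any group fell (the B cell gene Cd79a, log2 -1.74), and the part of immune cells in the 2 falls was not tested.

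Psme1, an activator that interferon gamma also induces, rose. It read 241, 249 and 269 in controls and 476, 479 and 485 after WY (log2 0.92, SE 0.12, adjusted p = 6.78e-05), while its other probe set lay at the floor throughout. The better measured of the 2 probe sets that match Psme2 and Psme2b alike read 184, 194 and 181 and then 259, 259 and 276 (log2 0.51, adjusted p = 0.106), and the other (log2 -0.24, adjusted p = 1) was mostly at the floor. Psme4 (PA200) had a change of 0.22 and Psme3 (PA28 gamma) of -0.40, and neither passed. Tap1, the peptide transporter gene between Psmb9 and Psmb8, read 119.7, 113 and 105 and then 62.2, 73.5 and 70.1 (log2 -0.72, adjusted p = 0.0583). This difference did not pass. Of the 7 class I antigen processing genes measured out of 9 listed, B2m fell (log2 -0.20) and none rose, and of 15 interferon response genes out of 20 listed, Igtp fell (log2 -0.81) and none rose. Of these 15, 6 lay at the floor in all 3 wild-type control mice and 7 in all 3 on WY. Calr, of the 7, lay at the floor in both groups. A gene at the floor in the controls could not fall. Of all probe sets 5.19% fell and 5.59% rose.

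**Figure D3:**
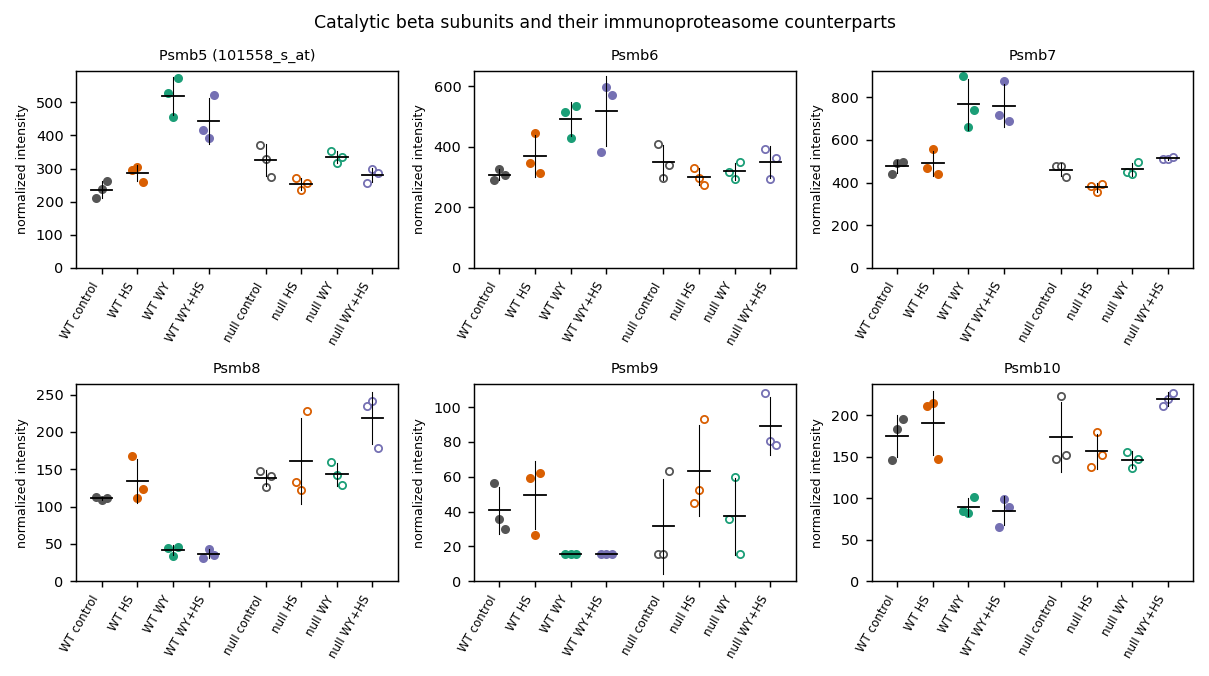
Normalised intensity, on linear axes that start at 0, of the 3 constitutive catalytic subunits and their immunoproteasome replacements in the 8 groups, with 1 point per mouse, the bar at the mean and the thin line at 1 SD either side. In wild-type mice given WY, Psmb5 (on 101558_s_at), Psmb6 and Psmb7 lie above the controls and Psmb8 and Psmb10 below, and Psmb9 is at the floor.

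Other genes of proteasome supply are given by list. Of 17 assembly, regulation and receptor genes measured out of 26 listed, 3 rose and 1 fell after WY in wild-type mice. Of all probe sets 5.59% rose and 5.19% fell, and the 1 fall lies near that share. Pomp, the maturation factor of the core, rose by 0.44 (adjusted p = 0.0251), Sem1, a small lid subunit outside the symbol rule, by 0.45 (adjusted p = 0.0209), and Vcp, the segregase that hands over substrates, by 0.64 (adjusted p = 0.00458). Ufd1, a partner of Vcp, fell by 1.04 (adjusted p = 0.0225). Nfe2l1 read 409, 417 and 426 in wild-type control mice and 524, 541 and 483 after WY (log2 0.31, adjusted p = 0.239). Of 9 NRF2 and antioxidant genes 3 fell and none rose: Gsta2 by 1.60, Gstm1 by 0.37 and Srxn1 by 0.80 on the log2 scale. Of the 8 ubiquitin and E1 genes listed, 1 was measured, Uba3, the E1 subunit for NEDD8, with a log2 change of 0.65 that passed.

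PPARα-null mice showed no call after WY. None of the 53 probe sets rose or fell, with a median change of -0.01, 1 up and 2 down at an unadjusted p under 0.05, and 0 in either direction by the methods' test. Over all probe sets, 0.00805% rose and 0% fell. Psmd4 read 474, 342 and 389 in PPARα-null control mice and 319, 375 and 388 after WY. Psmb8 read 147, 127 and 141 and then 159.5, 142 and 129, and Psmb5 on 101558_s_at 372, 329 and 275 and then 352, 315 and 334. In each of these genes the 2 groups overlapped.

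The difference of the WY response between the strains was tested as an interaction. It passed in 18 of 53 probe sets, in 17 as a lower response in PPARα-null mice and in 1 as a higher one, against 2.94% and 2.19% of all probe sets. The alpha ring had 6 of 7 such probe sets, the constitutive beta ring 4 of 12, the lid 3 of 10, the base 2 of 3, the ATPases 1 of 9 and the activators 1 of 4. The largest of the lower responses were in Psmd12 (log2 -1.85, adjusted p = 0.0306), Psmd4 (log2 -1.62, SE 0.23, adjusted p = 0.000291), Psmd14 (log2 -1.22, adjusted p = 0.0186), Psmd13 (log2 -1.11, adjusted p = 0.00482) and Psmd1 (log2 -1.11, adjusted p = 0.00627). Psmb5 on 101558_s_at (log2 -1.09, adjusted p = 0.000975), Psme1 (log2 -1.08, adjusted p = 0.000939) and Psma7 (log2 -1.04, adjusted p = 1.61e-05) followed. Psmb8 was the single positive one (log2 1.49, SE 0.30, adjusted p = 0.00534), while Psmb9 (log2 1.69, adjusted p = 0.276) and Psmb10 (log2 0.74, adjusted p = 0.149) did not pass. Without scaling of the arrays the counts were 2 lower and 0 higher. Over all probe sets they were then 225 lower and 40 higher, in place of 365 and 272.

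Between the strains on WY, 26 probe sets were lower and 3 higher in PPARα-null livers than in wild-type ones, against 6.65% and 6.38% of all probe sets, with a median of -0.35. All 24 genes lower by their brightest probe set were constitutive subunits, chaperones or activators. The 3 higher were Psmb8 (log2 1.80, SE 0.21, adjusted p = 1.24e-05), Psmb10 (log2 0.72, SE 0.19, adjusted p = 0.016) and the chaperone Psmd9 (log2 0.54, adjusted p = 0.0147). Without scaling, by the methods' test, or without mouse 7, 1 probe set was higher. Over all probe sets 792 were higher as reported, 132 without scaling and 374 by the methods' test. On the control diet the strains did not differ by the test in any of the 53 probe sets, with 8 higher and 3 lower in PPARα-null mice at an unadjusted p under 0.05, 0 in either direction by the methods' test, and 0.322% and 0.523% of all probe sets called. Of the 17 assembly, regulation and receptor genes, 1 was higher and 1 lower in PPARα-null control mice. The lower was Nfe2l1, at 231, 177 and 199 against the wild-type values above (log2 -1.05, adjusted p = 0.000922), and its link to the subunits was not tested. These contrasts share their samples with the WY comparisons.

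HS alone gave no call among the proteasome probe sets of wild-type liver. None of 53 rose or fell in limma, against 0.0322% and 0.00805% of all probe sets, and the methods' test called 1 rise. Of the member values 37 were positive and 10 negative, with a median of 0.10 beside 0 over all probe sets, and 7 were up and 0 down at an unadjusted p under 0.05. The largest differences by class were Psmd12 0.69, Psmc2 0.52, Psmd10 0.43, Psma3 0.41, Psme1 0.33, Psmb5 (101558_s_at) 0.28, Psmd1 0.27 and Psmb8 0.25 on the log2 scale. Psmc2 read 218, 222 and 244 in control mice and 324, 366 and 297 after HS (adjusted p = 0.328). Psmd4 read 383, 365 and 305 after HS, within the control range.

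In PPARα-null liver HS lowered 4 probe sets and raised none in limma, at a median of -0.06 and against 3.89% lower and 3.18% higher of all probe sets. At an unadjusted p under 0.05, 12 were lower and 8 higher. Psmb2 read 431, 417 and 388 in PPARα-null control mice and 270.2, 273 and 319 after HS (log2 -0.52, SE 0.09, adjusted p = 0.00139). Psmb3 read 616, 543 and 385 and then 304, 292 and 306 (log2 -0.75, SE 0.14, adjusted p = 0.00318). In both beta ring genes every mouse after HS lay below every control. Psmc3 fell by 1.03 on 93734_i_at, from 127, 102 and 94.1 to 68.0, 31.9 and 66.4 (adjusted p = 0.0183), while 93735_f_at (log2 -0.31, adjusted p = 0.242) and 100225_f_at (log2 0.27, adjusted p = 0.893) did not pass. Psme4 went from 142, 146 and 144 to 123, 102 and 117 (log2 -0.35, SE 0.10, adjusted p = 0.0356). The counts were small and unsteady: with only these 6 arrays compared or with no scaling none of the 4 passed, the methods' test called 2, and 2 to 5 were lower and 0 to 3 higher without 1 mouse, with 2 lower without mouse 13, 14 or 17, 1 higher without mouse 13 or 15, and 3 higher without mouse 18. Over all probe sets the falls went from 483 to 29 with only these arrays compared, 31 without scaling and 251 by the methods' test.

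The alpha ring, base, lid, chaperones and immunoproteasome gave no call in that comparison. Members of the alpha ring lay around 0 (median 0.05), and the largest difference in each class was Psma3 0.28, Psmc4 1.25 (adjusted p = 0.103), Psmd1 0.44, Psmd11 on 160304_r_at -1.76 (adjusted p = 0.389), Psmd9 0.35 and Psmb9 1.27 (adjusted p = 0.186). Psmc4, Psmd11 on that probe set and Psmb9 had values at the floor in some mice. Of 17 assembly and regulation genes, 2 fell after HS in PPARα-null mice and none rose, against 3.89% and 3.18% of all probe sets. Psmg1, which helps to build the alpha ring, fell by 0.35 and the shuttle Ubqln1 by 0.76. Tapbp, of the class I list, rose by 0.70 (adjusted p = 0.000895). The immune cell markers summed to 1072 to 1773 in PPARα-null control mice and 1808 to 2660 after HS, with Cd14 up (adjusted p = 0.00398) and 7 of 19 at the floor in both groups. The hepatocyte markers summed to 51952 to 53425 and then 49193 to 50374, and the part of either list in the calls was not tested.

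**Figure D4:**
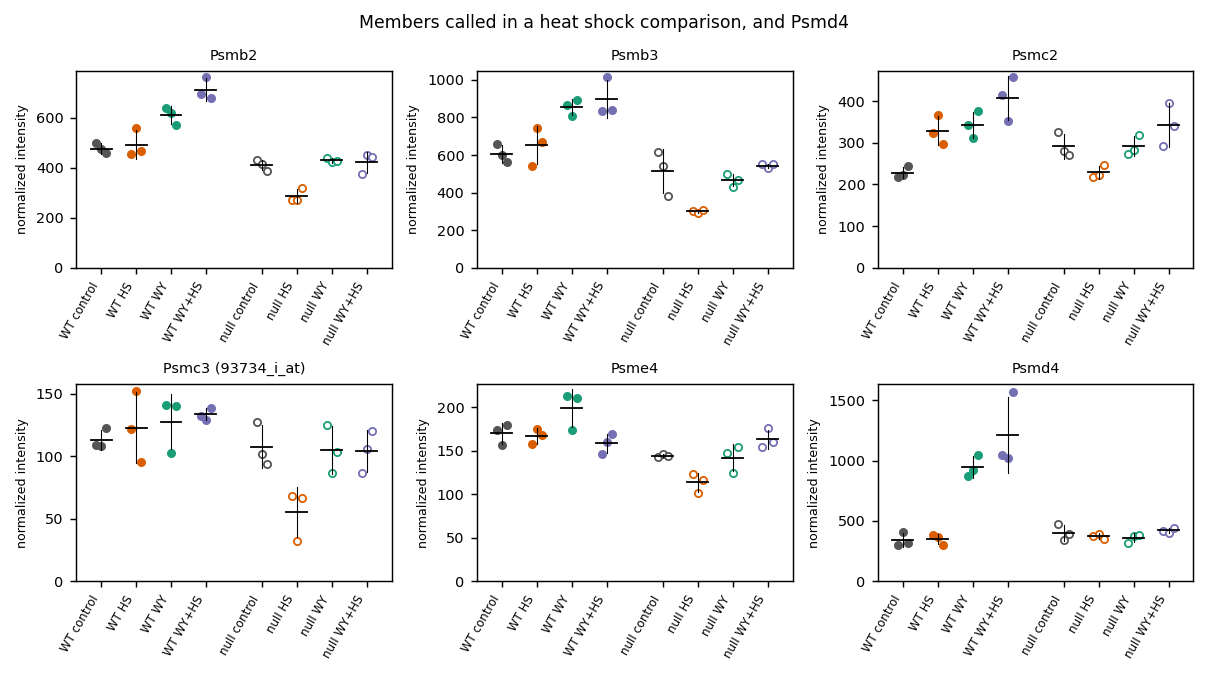
Normalised intensity, on linear axes that start at 0, of the members called for HS against control or in an interaction with HS, with Psmd4 for reference, in the 8 groups; points are mice, the bar is the mean and the thin line 1 SD either side. Psmb2 and Psmb3 are lowest in the 3 PPARα-null mice after HS.

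The difference of the HS response between the strains passed in 3 probe sets, all as a lower response in PPARα-null mice, against 0.942% lower and 0.676% higher of all probe sets. They were Psmc2, an ATPase (log2 -0.87, SE 0.17, adjusted p = 0.0147), Psmb3 (log2 -0.84, SE 0.19, adjusted p = 0.0377) and Psmb2 (log2 -0.56, SE 0.12, adjusted p = 0.0282). For Psmc2 neither strain passed alone, with values of 325, 279 and 270.0 in PPARα-null controls and 219, 222 and 248 after HS (log2 -0.34) beside a log2 change of 0.52 in wild-type mice. At an unadjusted p under 0.05, 13 probe sets were lower and 1 higher. The count of 3 was 1 under a common median, 1 with only the arrays compared, 1 with a trended and robust prior for the variance in limma, and 0 without scaling. Over all probe sets the lower calls went from 117 to 100, 29, 79 and 8 in those settings, in that order. Without mouse 2, 3, 5, 13, 14, 16 or 17 it was 1, with the highest count 4.

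After HS, 14 probe sets were lower and 4 higher in PPARα-null than in wild-type mice, against 7.69% lower and 7.12% higher of all probe sets, at a median of 0.00. By the brightest probe set 11 genes were lower and 2 higher. The strongest of the lower ones were Psmb2 (log2 -0.78, SE 0.09, adjusted p = 1.83e-05) and Psmb3 (log2 -1.11, SE 0.14, adjusted p = 4.76e-05). Psma1 (log2 -0.91, adjusted p = 0.000325), Psme4 (log2 -0.56, adjusted p = 0.000724), Psmd3 (log2 -0.63, adjusted p = 0.0017) and Psma5 (log2 -0.30, adjusted p = 0.00199) came next. The 4 higher were Psmd9 (log2 0.71, adjusted p = 0.00201), Psmc4 (log2 1.36, adjusted p = 0.0442), Psmb1 on 160875_at (log2 0.29, adjusted p = 0.0458) and Psme3ip1 (log2 0.79, adjusted p = 0.0371). With only the 6 arrays compared 3 were lower and 0 higher, the methods' test gave 7 and 1, and leaving out 1 mouse gave 8 to 13 lower, with 9 without mouse 4 or 5 and 8 without mouse 17, and 1 to 5 higher, with 2 without mouse 4 and 1 without mouse 6, 16 or 17. Over all probe sets 955 were lower and 884 higher as reported. The counts were 357 and 354 with those arrays alone, and 506 and 388 by the methods' test. For Psmb5, 160559_at was lower (log2 -0.89, adjusted p = 0.0115) and 101558_s_at did not pass (log2 -0.18, adjusted p = 0.469).

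When HS followed the WY diet in wild-type mice, the constitutive subunits stood above control as they did on WY alone, and Psmb8 and Psmb10 below. Against control, 28 probe sets rose and 2 fell, at a median of 0.55, with 5.23% and 5.38% of all probe sets called. The alpha ring had 7 of 7 up at a median of 0.94, the constitutive beta ring 7 of 12 at 0.57, the lid 8 of 10 at 0.72, the base 2 of 3 at 1.12 and the ATPases 2 of 9 at 0.43. Psmd4 read 1044, 1022 and 1572 (log2 1.81, SE 0.16, adjusted p = 7.41e-07), and Psma5 579, 587 and 640.5 (log2 0.97, adjusted p = 6.58e-09). Psma7 (log2 0.97, adjusted p = 1.91e-07) and Psma4 (log2 1.09, adjusted p = 1.17e-05) stood at like sizes. Psmb8 read 31.3, 43.6 and 35.4 (log2 -1.61, SE 0.21, adjusted p = 5.24e-05), Psmb10 65.4, 99.6 and 89.4 (log2 -1.06, adjusted p = 0.000958), and Psmb9 lay at the floor in all 3 mice (log2 -1.32, adjusted p = 0.14). Without scaling 5 probe sets rose in place of 28, and over all probe sets 170 in place of 650.

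Against WY alone no probe set passed, with a median of 0.06, 5 up and 2 down at an unadjusted p under 0.05, and 0 in either direction by the methods' test, against 0.274% and 0.153% of all probe sets. Psmd4 had a log2 difference of 0.33 (SE 0.16) in that contrast. Against HS alone, 25 rose and 2 fell, with 4.8% and 4.89% of all probe sets called. Psma5 (log2 1.02, adjusted p = 3.33e-09), Psma7 (log2 0.86, adjusted p = 7.95e-07) and Psmd4 (log2 1.77, SE 0.16, adjusted p = 9.13e-07) led the rises by adjusted p, and Psmb8 (log2 -1.86, SE 0.21, adjusted p = 1.04e-05) and Psmb10 (log2 -1.17, adjusted p = 0.000383) fell. The 25 rises became 8 with only the 6 arrays compared, 16 by the methods' test and 1 without scaling. Over all probe sets the rises went from 596 to 227, 344 and 136 in those settings, in that order. The interaction of WY and HS in wild-type mice passed in no probe set, with 2 up and 4 down at an unadjusted p under 0.05, and with 0.0564% and 0.0483% of all probe sets called. Without scaling 26 probe sets passed there as lower, on a median of all probe sets of -0.66 and beside 2630 of all 12422 probe sets called lower.

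In PPARα-null mice, WY+HS against control passed in no probe set (median 0.06, 7 up and 0 down at an unadjusted p under 0.05, 0 by the methods' test, 0.0161% and 0% of all probe sets), and neither did WY+HS against WY (median 0.13, 8 up and 0 down unadjusted, 0 by the methods' test, 0.00805% and 0.0161%). Against HS alone, 13 rose and none fell in limma, with 6.05% and 5.14% of all probe sets called and 17 up and 3 down at an unadjusted p under 0.05. Psmb2 read 374, 450.2 and 443 after WY+HS (log2 0.55, SE 0.09, adjusted p = 0.000547) beside the values after HS given above, and Psmb3 550.3, 533 and 550.3 (log2 0.86, SE 0.14, adjusted p = 0.000673). In both genes the values overlapped those of the PPARα-null controls. The other rises were in Psma5 (log2 0.33, adjusted p = 0.00149), Psme4 (log2 0.52, adjusted p = 0.00197), Psmc1 (log2 0.82, adjusted p = 0.00419), Psmc2 (log2 0.57, adjusted p = 0.00514), Psmd3 (log2 0.53, adjusted p = 0.0086), Psmb7 (log2 0.45, adjusted p = 0.0137) and Psmc3 on 93734_i_at (log2 0.98, adjusted p = 0.0167), with Psmd6, Psmd11 on 160305_at, Psmd5 and Psmb1 on 98113_at at changes of 0.55, 0.39, 0.58 and 0.19. This comparison has the HS group of PPARα-null mice in common with the one where Psmb2, Psmb3, Psmc3 and Psme4 fell. It gave 2 rises with only the 6 arrays compared, 7 by the methods' test, 0 without scaling and 6 without mouse 17. Over all probe sets the rises went from 752 to 89 with those arrays alone, 360 by the methods' test and 69 without scaling.

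The interaction of WY and HS in PPARα-null mice passed in 2 probe sets, both higher, against 1.16% higher and 0.684% lower of all probe sets: Psmb3 (log2 0.97, SE 0.19, adjusted p = 0.0163) and Psme4 (log2 0.55, SE 0.14, adjusted p = 0.0471). The count was 4 under a common median, 1 with a trended and robust prior, 0 with only the arrays compared or without scaling, 4 without mouse 18 or 22, 0 without mouse 20, and 1 without mouse 13, 14, 17, 19, 23 or 24. Over all probe sets the higher calls went from 144 to 276 under a common median and 104 with that prior. They were 15 with only the arrays compared and 5 without scaling. At an unadjusted p under 0.05, 13 were higher and none lower.

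After WY+HS all 3 immunoproteasome subunits were higher in PPARα-null livers than in wild-type ones. There 22 probe sets were lower and 4 higher in PPARα-null mice, against 5.51% and 6.23% of all probe sets, at a median of -0.37. Psmb8 read 235, 242 and 178 in PPARα-null mice against the wild-type values above (log2 2.57, SE 0.21, adjusted p = 1.97e-07), a 5.94-fold difference. Psmb9 read 108, 80.4 and 78.3 while all 3 wild-type mice lay at the floor (log2 2.48, SE 0.52, adjusted p = 0.00374), which bounds the difference from below, and Psmb10 read 211, 219.5 and 228 (log2 1.39, SE 0.19, adjusted p = 6.32e-05). In none of the 3 genes did the groups overlap, which adds nothing to their adjusted p from the same values. Psme3ip1 was the remaining one (log2 1.09, adjusted p = 0.00582). Of the 15 interferon response genes 5 were higher in the PPARα-null mice and none lower, and 2 of the 7 class I genes were higher and none lower. Immune cell markers summed to 1536 to 2045 in these mice and to 935 to 1393 in the wild-type ones, and their part was not tested. Among the lower probe sets, Psma5 (log2 -0.98, adjusted p = 3.42e-09), Psma7 (log2 -0.76, adjusted p = 2.84e-06) and Psmd4 (log2 -1.50, adjusted p = 5.27e-06) had the smallest adjusted p.

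**Figure D5:**
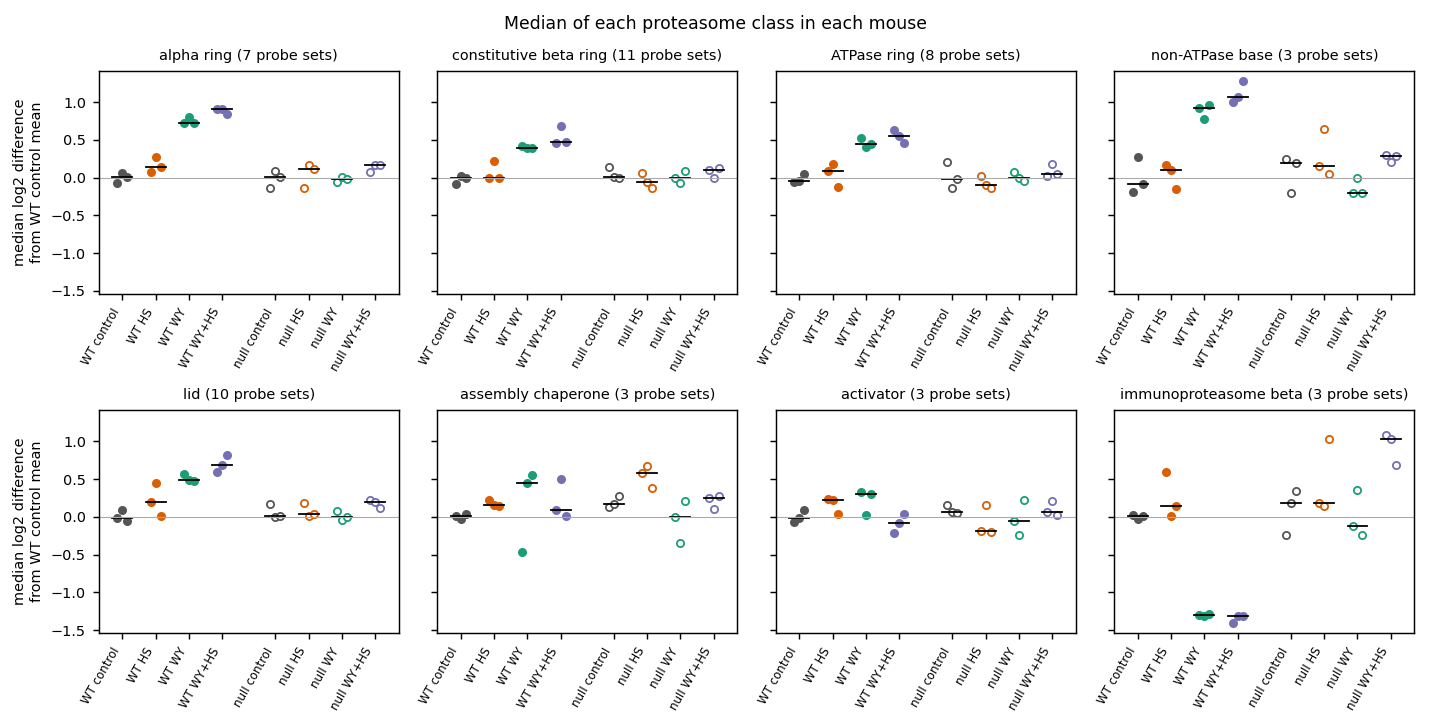
Median log2 difference from the wild-type control mean over the probe sets of each class above the floor on at least 1 array, for each mouse in the 8 groups, with the bar at the median of the 3 mice. The alpha ring sits at 0.72 to 0.80 in wild-type mice on WY and at 0.84 to 0.91 after WY+HS, and the immunoproteasome at 0.68 to 1.08 in PPARα-null mice after WY+HS.

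The pooled constitutive median of single mice separated the wild-type mice given WY from the rest, while the chaperone and activator medians did not. The chaperone median ran from -0.46 to 0.55 in wild-type mice on WY and from 0.38 to 0.68 in PPARα-null mice after HS. The activator median ran from -0.21 to 0.04 in wild-type mice after WY+HS and from -0.07 to 0.09 in wild-type controls. Over the 34 constitutive probe sets never at the floor, the median difference from the wild-type control mean ran from -0.06 to 0.06 in the 3 wild-type control mice, 0.03 to 0.25 after HS, 0.47 to 0.61 after WY and 0.63 to 0.76 after WY+HS. In the 12 PPARα-null mice it ran from -0.05 to 0.17. The immunoproteasome median in wild-type mice on WY ran from -1.32 to -1.29, where Psmb9 is held by the floor. All 6 wild-type mice given WY lay above the other 18 mice in the constitutive median.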

How the data were processed

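Liver RNA of 24 mice was hybridised to Affymetrix U74Av2 arrays, 1 mouse per array. The deposited series values are intensities, which the authors made in GCOS and Rosetta Resolver; how probes were summarised and scaled is not stated in the sources used here, and 24.1% of the values are at or below 0. The 66 rows without values were left out. Probe sets were named from the platform table, and all 53 member symbols matched the RefSeq gene table. The 24 arrays were quantile normalised, values below a floor of 15.7, the size without the sign of the 10th percentile of all normalised values (which is negative), were raised to it, and log2 values were fitted with limma 3.58.1 in R 4.3.3 over 8 groups of 3 (16 residual degrees of freedom, prior 0.39), with 18 contrasts and Benjamini-Hochberg adjustment over 12422 probe sets at 0.05. Interactions are differences of log2 changes. No 2 arrays were duplicates (highest correlation 0.982). The script was tested on simulated data.

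The symbol rule, classes and gene lists were chosen with earlier results of these data known. Genes were named by a fixed rule: the catalytic pairs, Psme1, Psme2, Psmc2 and Psmc3ip, up to 10 called members with the smallest adjusted p in each direction of each treatment or interaction contrast, the member with the largest change in each class for HS and for WY, every gene whose probe sets disagree, and up to 3 called genes of a list. Called members of the strain contrasts were named after their values were seen. Other named genes, among them Tap1 and Nfe2l1, which did not pass after WY, fall outside the rule. The methods' test is a one-way ANOVA over the 8 groups, adjusted by Benjamini-Hochberg, followed by Scheffe's test, run on the same values. Promoters come from RefSeq, GRCm38.p6. Probe intensities carry no count of molecules, and 3 mice per group limit the precision. Contrasts within a strain share mice.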

Additional observations from a re-analysis of the deposited data

Results flagged for a closer look

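The WY response differed between the strains, by the interaction test in limma, in 18 proteasome probe sets. The log2 difference, PPARα-null minus wild-type, was -1.85 for Psmd12, -1.62 for Psmd4, -1.22 for Psmd14, -1.11 for Psmd13, -1.11 for Psmd1, -1.09 for Psmb5 (101558_s_at), -1.08 for Psme1, -1.04 for Psma7, -0.89 for Psmb4 (98557_f_at), -0.86 for Psma4, -0.77 for Psmc3 (93735_f_at), -0.76 for Psma3, -0.75 for Psma1, -0.67 for Psmb7, -0.61 for Psma2, -0.59 for Psma5 and -0.43 for Psmb1 (98113_at). Psmb8 was the positive one at 1.49. The adjusted p of these 18 ran from 1.61e-05 (Psma7) to 0.0356 (Psma1).

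The HS response differed between the strains in 3 probe sets: Psmc2 at -0.87 (adjusted p = 0.0147), Psmb3 at -0.84 (adjusted p = 0.0377) and Psmb2 at -0.56 (adjusted p = 0.0282) in limma. Within PPARα-null mice the HS response differed between the WY and control diets for Psmb3 at 0.97 (adjusted p = 0.0163) and Psme4 at 0.55 (adjusted p = 0.0471), and both contrasts use the same PPARα-null HS and control mice. With 3 mice per group, no sample was tested as an outlier.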

How the results depend on the processing

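No paired analysis was possible because the 24 mice carry unique numbers that tie none of them together across groups. Counts below are of proteasome probe sets past an adjusted p of 0.05, beside the reported count. Calls over all probe sets moved with the setting too, so a changed count is not by itself a trait of the proteasome probe sets. The counts of members higher and lower in the 18 comparisons stayed within 1.5 times in 273 of 316 recomputed values under other scalings, floors, filters, priors, samples or tests, and in 228 of 264 with 1 mouse left out. Many of the reported counts were 0, and a 0 that stayed 0 is included in these figures. They therefore say little of how steady the larger counts were. For the named probe sets, 723 of 808 recomputed values stayed as reported, either called in the same direction or not called. Of the rest, 78 lost the call, 4 gained it and 3 reversed. With 1 mouse left out 740 stayed as reported, 48 lost the call and 4 gained it. A change of sign was not counted where neither fit passed.

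Scaling moved most. Without scaling, the median of all probe sets shifted by 0.19 after HS, 0.12 after WY, -0.37 for WY+HS against WY, -0.21 for WY+HS against HS and -0.66 for the interaction of WY and HS in wild-type mice, where the members' medians were 0.54, 0.91, -0.53, -0.09 and -1.08. Without scaling in wild-type mice, the falls after WY were 0 (2), the rises of WY+HS against control 5 (28), the falls against WY 2 (0), the rises and falls against HS 1 (25) and 6 (2), and the lower interactions 26 (0). Over all probe sets the lower interactions were then 2630 (6). Psmb1 (98113_at), Psmb2 and Psmd7 then reversed against HS, at -0.19, -0.034 and -0.19. In PPARα-null mice the falls after HS were 0 (4), the rises of WY+HS against HS 0 (13) and the interaction of WY and HS 0 (2). Between the strains, 0 (4) were higher after HS, 1 (3) higher after WY, 5 (22) lower after WY+HS, 0 (3) lower in the HS interaction, and 0 (1) higher and 2 (17) lower in the WY interaction. The share of rises among all calls after WY in wild-type mice was 51.8% as reported, 90% without scaling and 42.8% with a common median. Among member calls it went without scaling from 93.3% to 71.4% for WY+HS against control and from 92.6% to 14.3% against HS in wild-type mice, from 22.2% to 0% between the strains after HS, and from 15.4% to 37.5% after WY+HS. With a common median the rises after WY were 16 (28), the higher after HS between strains 2 (4), the lower HS interactions 1 (3) and the interaction of WY and HS in PPARα-null mice 4 (2).

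With only the arrays compared, the falls of WY+HS in wild-type mice were 1 (2) against control, the rises and falls against HS 8 (25) and 1 (2), the falls and rises after HS in PPARα-null mice 0 (4) and 1 (0), the rises of WY+HS against HS there 2 (13), the interaction of WY and HS there 0 (2), the higher and lower between strains after HS 0 (4) and 3 (14), the lower after WY+HS 14 (22) and the lower HS interactions 1 (3). By the methods' test, the rises after HS in wild-type mice were 1 (0), after WY 18 (28) and for WY+HS against HS 16 (25), the falls after HS in PPARα-null mice 2 (4), the rises of WY+HS against HS there 7 (13), the higher and lower between strains after HS 1 (4) and 7 (14), and the higher after WY 1 (3). A trended and robust prior gave 1 (3) lower HS interaction and 1 (2) interaction of WY and HS in PPARα-null mice. A floor at the size of the 20th percentile gave 2 (1) higher WY interactions, and a floor at the size of the 5th percentile or a filter at the 30th gave 1 (0) fall of WY+HS against HS among PPARα-null mice.

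Without 1 mouse, the HS interaction ran from 0 to 1 higher (1 without mouse 18) and from 1 to 4 lower. After HS in PPARα-null mice 0 to 3 were higher and 2 to 5 lower, and between the strains after HS 1 to 5 higher and 8 to 13 lower. After WY between the strains 1 to 3 were higher. The interaction of WY and HS in PPARα-null mice ran from 0 to 4 higher and 0 to 1 lower (1 without mouse 18). The WY interaction ran from 1 to 2 higher (2 without mouse 14 or 15). The rises of WY+HS against HS among PPARα-null mice ran from 6 to 13, and the falls from 0 to 1 (1 without mouse 18). Values at the floor limit Psmb9, Psmc4, Psmd2 and Psmd10.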
